A study of Mus musculus with 23 samples.

Results

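The 10 genes described here are members of the interleukin-6 family pathway, taken by symbol from the deposited expression table: the ligands Il6, Lif, Il11 and Clcf1, the receptor chains Il6ra, Il6st, Lifr and Osmr, the transcription factor Stat3 and the inhibitor Socs3. They are 10 of 23284 genes in the table, 14369 of which were above 0 in at least 1 library. Their levels were followed over 23 libraries, made from 16 single mouse bone marrow mesenchymal stem cells (mMSC1 to mMSC16), 5 single HL-1 cardiomyocytes (HL1cm1 to HL1cm5, a beating mouse atrial muscle cell line) and 1 bulk population control of each cell type (mMSC-PC and HL1cm-PC). The mMSCs were purchased, derived from male mice 3 months old, and grown in alpha-MEM with fetal bovine serum on gelatin to passages 6 to 11. The HL1cm, at passages 70 to 85, were grown in Claycomb medium with fetal bovine serum and norepinephrine, and were marked with a green dye so that both cell types could be caught in 1 Fluidigm C1 device. The labels give strain C57BL/6J for all 4 groups, and no group received a cytokine or another immune stimulus in the sources used here. Separate cultures are not named in the sources used here, so each cell type was treated as 1 culture, single cells were not counted as replicates of it, and the comparisons below carry no test. As each single-cell library is also 1 cell, no error can be given for its values, and the spread between cells is given as ranges.

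Cytokines of this family signal through receptor complexes that share the chain gp130, the product of Il6st. Il-6 binds its own receptor chain (Il6ra) before it recruits gp130, whereas Lif pairs gp130 with Lifr, oncostatin M pairs it with Osmr, and Clcf1 uses the ciliary neurotrophic factor receptor complex. Gp130 activates Jak kinases and then Stat3, whose targets include Socs3, a feedback inhibitor that binds gp130 and its kinases. A cell that lacks Il6ra can still respond to Il-6 bound to a soluble receptor shed by other cells. Mesenchymal stem cells are known as a source of Il-6 and Lif, which are among the factors through which they act on immune and blood-forming cells.

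The promoter windows of Il6 and Lif are printed because Il6 had the widest spread between mMSCs of the 10 genes and Lif was the ligand most often compared with it below, and both genes are known targets of inducible factors. Both are the 250 bases upstream of the transcript start in RefSeq (GRCm38.p6, the build called mm10), read 5′ to 3′ on the strand of the gene, with the searched motifs in capitals.
Il6, chr5:30012864-30013113, plus strand: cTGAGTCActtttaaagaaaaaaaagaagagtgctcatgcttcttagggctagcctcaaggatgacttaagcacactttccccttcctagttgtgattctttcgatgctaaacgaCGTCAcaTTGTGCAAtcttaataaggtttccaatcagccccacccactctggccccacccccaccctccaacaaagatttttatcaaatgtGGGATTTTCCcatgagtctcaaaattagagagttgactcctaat
Lif, chr11:4257318-4257567, plus strand: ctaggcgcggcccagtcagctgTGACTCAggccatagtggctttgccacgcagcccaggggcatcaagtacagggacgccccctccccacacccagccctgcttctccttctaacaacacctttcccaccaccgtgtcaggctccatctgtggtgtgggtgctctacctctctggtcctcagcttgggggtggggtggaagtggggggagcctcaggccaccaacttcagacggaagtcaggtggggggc
In the Il6 window the capitals mark, from left to right, TGAGTCA (an AP-1 motif, TGANTCA, at -249 to -243 from the start), CGTCA (the CRE half-site TGACG on the other strand, -135 to -131), TTGTGCAA (a C/EBP motif, TTGNGCAA, -128 to -121) and GGGATTTTCC (an NF-kB motif, searched as GGGA, any base, then TTTCC, -44 to -35). In the Lif window they mark TGACTCA, an AP-1 motif at -228 to -222. The letters of each motif were searched on both strands, and the motifs marked do not overlap. Of 32851 promoter windows of the same length in the same table, 0.356% held the NF-kB letters, 2.61% the C/EBP letters, 6.75% the AP-1 letters and 17.8% the CRE half-site. A STAT motif of the form TTCNNNGAA, present in 7.02% of the windows, was found in that of Socs3 as TTCTTAGAA, at -154 to -146 from the transcript start used in the table, on the strand of the gene (chromosome 11, minus strand, window 117969367 to 117969616, which lies inside the wider RefSeq range of Socs3). None of the other members in the table held the NF-kB, C/EBP or STAT letters. The 9 members in the promoter table gave 11 windows, and Clcf1 was not matched. These matches describe the letters only, and binding was not measured.

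The genes lie apart in the genome except for Osmr (chromosome 15, bases 6813568 to 6874968) and Lifr (chromosome 15, bases 7090610 to 7197489), which lie close together and encode chains of one receptor family. Il6 lies on chromosome 5 (30013114 to 30019975), Lif on chromosome 11 (4257568 to 4272514), Il11 on chromosome 7 (4772373 to 4782907) and Clcf1 on chromosome 19 (4214238 to 4223505). Il6ra lies on chromosome 3 (89869324 to 89913196) and Il6st on chromosome 13 (112464070 to 112506860). Stat3 and Socs3 are both on chromosome 11, at 100886806 to 100939594 and 117966079 to 117970336. All positions are those of RefSeq on GRCm38.p6.

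The values are FPKM, fragments scaled by exon length and by the mapped total of the library, as the authors deposited them. They are per length, but the lowest level that could be seen differed between genes. In mMSCs with an FPKM of 0, 3 read pairs correspond to a median of 1.06 FPKM for Il6ra and 13.5 for Il6. A single mMSC had between 5178 and 7241 genes at 1 FPKM or more and a single HL1cm between 6428 and 7010, while mMSC-PC had 9625 and HL1cm-PC 9881. An FPKM of 0 can be a failed estimate, since 5 of 352 genes that reached 100 FPKM in 20 or more of the 21 single cells were listed at 0 in the remaining cell, so a gene is described below as listed at 0 and not as absent. The labelled cell types matched their markers. The summed FPKM of 9 mesenchymal markers was 2902 to 7138 in mMSCs and 760 to 1598 in HL1cm, and that of 10 cardiomyocyte markers was 0 to 65.4 in mMSCs and 32780 to 59987 in HL1cm. Of 10 macrophage markers, 5, among them the defining genes Ptprc, Emr1 and Lyz2, were listed at 0 in all 16 mMSCs. The other 5 included Cd14, above 0 in 15 mMSCs (median 62.5 FPKM), and Csf1r, above 0 in 8, and the summed level of the list was 3.10 to 369 FPKM in mMSCs and 0 to 1.10 in HL1cm. The part of these markers in the differences between the cell types below was not tested.

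**Figure D1:**
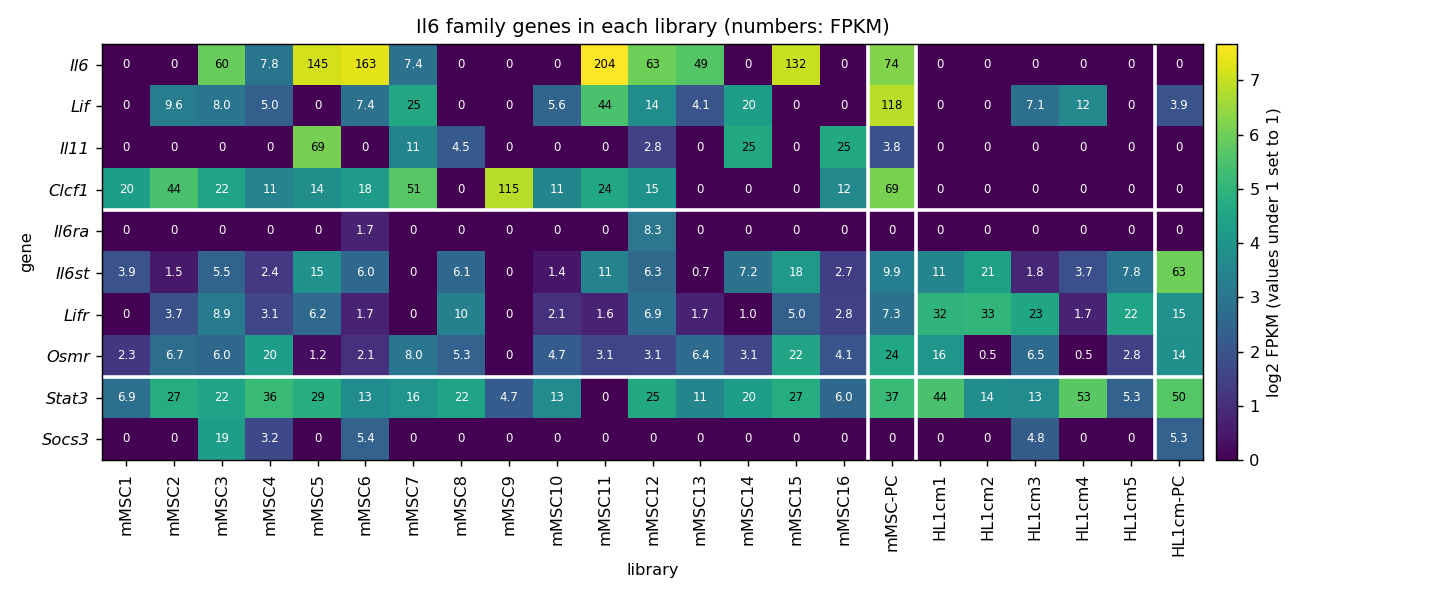
FPKM of the 10 genes (rows: ligands, receptor chains, signalling) in each of the 23 libraries (columns), printed as numbers on a log2 colour scale in which values under 1 FPKM are set to 1. The ligand rows alternate between high values and 0 across mMSCs, and Il6, Il11, Clcf1 and Il6ra are listed at 0 in all 6 HL1cm libraries.

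The ligands were patchy among single mMSCs, and all but Lif were listed at 0 in every HL1cm library. Il6 was above 0 in 9 of 16 mMSCs (56.2%, exact 95% interval 29.9 to 80.2%, which covers counting error only). Its levels were 204 FPKM in mMSC11, 163 in mMSC6, 145 in mMSC5, 132 in mMSC15, 63.0 in mMSC12, 59.9 in mMSC3, 49.1 in mMSC13, 7.83 in mMSC4 and 7.38 in mMSC7. The 9 values thus fell into 7 cells at 49.1 FPKM or more and 2 cells below 10, and the other 7 mMSCs were listed at 0. About 2.13 to 94.9 read pairs stood behind the values above 0. A 0 that is a true count allows up to 6.91 to 35.1 FPKM, depending on the library (3 read pairs, median 13.5 FPKM). Levels such as those of mMSC4 and mMSC7 were thus not detectable in most of the libraries listed at 0. A 0 that is a failed estimate, here and below, sets no such limit.

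Lif, a cytokine that maintains undifferentiated states and acts in bone marrow and bone, was above 0 in 10 mMSCs (62.5%, interval 35.4 to 84.8%). It reached 44.5 FPKM in mMSC11, 24.8 in mMSC7, 19.5 in mMSC14 and 13.6 in mMSC12, and was between 4.08 and 9.55 in mMSC2, mMSC3, mMSC4, mMSC6, mMSC10 and mMSC13. Lif was thus found in about as many cells as Il6. Over the cells above 0 its median was lower, at 8.78 FPKM against 63.0 for Il6. In the cells listed at 0, 3 read pairs correspond to a median of 4.65 FPKM for Lif and 13.5 for Il6. Over all 16 mMSCs the medians were closer, at 5.31 FPKM for Lif and 7.61 for Il6. In mMSC-PC the order was reversed, with 118 FPKM for Lif and 73.7 for Il6. Clcf1, a cardiotrophin-like cytokine, was the most widely found ligand, above 0 in 12 mMSCs (75.0%, interval 47.6 to 92.7%). Its values ran from 10.8 FPKM (mMSC4) to 51.0 (mMSC7) in 11 of these cells and reached 115 in mMSC9, the shallowest library, and 12 of 12 were above 10 FPKM. Il11, a cytokine of bone and stromal cells, was above 0 in 6 mMSCs (37.5%, interval 15.2 to 64.6%), at 69.0 FPKM in mMSC5, 25.4 in mMSC16, 25.3 in mMSC14, 10.9 in mMSC7, 4.48 in mMSC8 and 2.80 in mMSC12.

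Every single mMSC carried at least 1 of the 4 ligands. A single ligand was above 0 in 4 cells (Clcf1 in mMSC1 and mMSC9, Il11 in mMSC8, Il6 in mMSC15), 2 ligands in 5 cells, 3 in 5 cells and all 4 in 2 cells, mMSC7 and mMSC12. Il6 and Lif were found together in 7 cells (mMSC3, mMSC4, mMSC6, mMSC7, mMSC11, mMSC12 and mMSC13), and 6 of these, all but mMSC13, also held Clcf1. The highest level of both Il6 and Lif was in the same cell, mMSC11, which had no Il11 above 0. The summed level of the 4 ligands ranged from 4.48 FPKM in mMSC8 to 272 in mMSC11 with a median of 71.5.

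In single HL1cm, Il6, Il11 and Clcf1 were listed at 0 in all 5 cells and in HL1cm-PC. The exact interval for 0 of 5 cells reaches 52.2%, above the 37.5% found for Il11 in mMSCs. For Il6, 3 read pairs correspond to 7.72 to 16.9 FPKM in single HL1cm. Lif was the exception among the ligands, at 7.06 FPKM in HL1cm3, 12.3 in HL1cm4 and 3.87 in HL1cm-PC, values inside the range of the mMSCs. Together with Il6ra, 4 of the 10 members were above 0 in at least 1 mMSC and listed at 0 in all 6 HL1cm libraries, as were 18.4% of 12914 genes. On the scale of mean log2 FPKM, with values under 1 FPKM set to 1, the difference between mMSCs and HL1cm was 3.36 for Clcf1, 3.29 for Il6, 1.41 for Il11 and 0.84 for Lif. These differences depend on the value set for a listed 0 and are no fold changes for the first 3, which have no HL1cm value above 0. For Lif the difference was 1.23 without HL1cm3 and 1.43 without HL1cm4, the only HL1cm in which it was above 0, and 0.52 when any 1 of the other 3 HL1cm was left out.

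**Figure D2:**
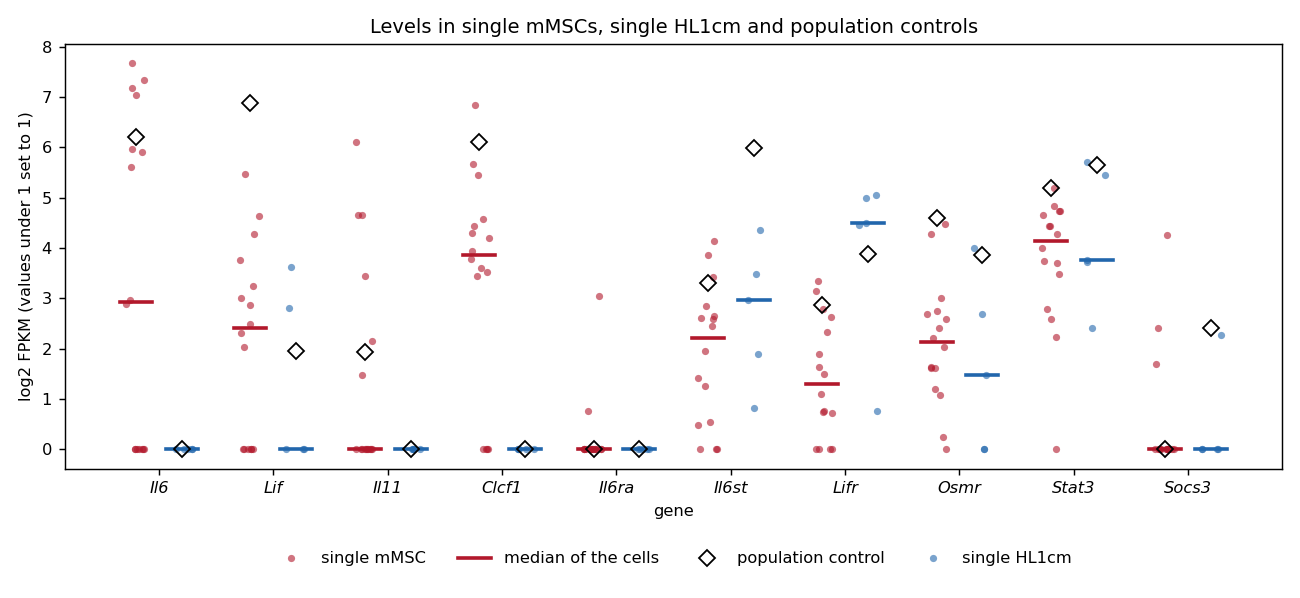
Levels of the 10 genes as log2 FPKM (values under 1 FPKM set to 1) in single mMSCs (red points, n = 16) and single HL1cm (blue points, n = 5), with the median of the cells as a bar and the population control as a diamond. Lifr is the member with 4 of 5 HL1cm above every mMSC, and mMSC-PC lies far above all 16 cells for Lif.

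Among the receptor chains, Il6ra stood apart from the others. Il6ra was above 0 in 2 mMSCs (12.5%, interval 1.55 to 38.3%), at 8.29 FPKM in mMSC12 and 1.71 in mMSC6, and was listed at 0 in the other 14, in all HL1cm and in both population controls. Its transcript is long, so a listed 0 that is a true count allows no more than 0.810 to 4.63 FPKM in these mMSCs. A listed 0 that is a failed estimate sets no such limit. The 2 values above 0 rest on about 24.0 and 7.01 read pairs. Il6st, the shared chain, was above 0 in 14 mMSCs (87.5%, interval 61.7 to 98.4%) and in 5 of 5 HL1cm. In mMSCs it ranged from a listed 0 in mMSC7 and mMSC9 to 17.7 FPKM in mMSC15 with a median of 4.70, followed at the top by 14.6 in mMSC5 and 10.8 in mMSC11. In HL1cm it was 11.2, 20.6, 1.77, 3.70 and 7.83 FPKM in HL1cm1 to HL1cm5, so the ranges of the cell types overlapped.

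Lifr differed most between the cell types among the receptor chains. In mMSCs it ranged from a listed 0 in mMSC1, mMSC7 and mMSC9 to 10.2 FPKM in mMSC8, with a median of 2.48. In HL1cm it was 32.0, 33.1, 22.7, 1.69 and 22.2 FPKM in HL1cm1 to HL1cm5, that is, above every mMSC in 4 cells and below the mMSC median in HL1cm4. The difference of means was -2.54 on the log2 scale and -3.34 without HL1cm4, and between -2.27 and -2.41 when another HL1cm was left out. Osmr, the oncostatin M receptor chain, was above 0 in 15 mMSCs, all but mMSC9, with a median of 4.37 FPKM and highest values of 22.4 in mMSC15 and 19.5 in mMSC4. In HL1cm it was 15.9, 0.542, 6.48, 0.452 and 2.81 FPKM, again overlapping the mMSCs, and its difference of 0.48 rose to 1.07 without HL1cm1 and was 0.07 without HL1cm2 or without HL1cm4. The difference of Il6st was -0.81, and it lay at -1.28 without HL1cm3, -1.02 without HL1cm4 and -0.40 without HL1cm2. The summed level of the 4 receptor chains had a median of 11.7 FPKM in mMSCs (0 to 45.2) and 32.8 in HL1cm (5.84 to 59.1), the opposite order to that of the summed ligands, for which the median over HL1cm was 0 (0 to 12.3).

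Stat3 was found in nearly all cells of both types and Socs3 in few. Stat3 was above 0 in 15 mMSCs, at 4.69 FPKM or more, with a median over the 16 cells of 17.8 and a highest value of 36.4 in mMSC4. It was listed at 0 in mMSC11, the cell with the highest Il6 and Lif. In that library 3 read pairs correspond to 1.22 FPKM, but this 0 may be a failed estimate and then sets no limit. In HL1cm Stat3 was 44.0, 13.6, 13.1, 52.6 and 5.30 FPKM. The difference of -0.47 was less than the SD between mMSCs (1.32) and ran from -0.92 to -0.09 with each HL1cm left out in turn. Socs3 was above 0 in 3 mMSCs (18.8%, interval 4.05 to 45.6%), at 19.3 FPKM in mMSC3, 5.35 in mMSC6 and 3.25 in mMSC4, and in 1 HL1cm at 4.82 (HL1cm3). Its values in mMSCs rest on about 17.5, 6.49 and 3.55 read pairs. A listed 0 that is a true count allows up to 2.88 to 15.7 FPKM (median 3.78). A level such as that of mMSC4 could thus not be told from 0 in many of the other cells. HL1cm3 was also 1 of the 2 HL1cm with Lif above 0.

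Over the 10 members, 3 (Il6, Il11 and Clcf1) were higher in mMSCs by 1 or more on the log2 scale and 1 (Lifr) was lower. Among the 11850 genes that reached 1 FPKM in 2 or more of 21 single cells, 21.4% were higher and 21.6% lower by this measure, and the median difference was 0.36 over the members and 0.08 over all of these genes. With a limit of 10 FPKM, Clcf1 (0.87) and Il11 (0.35) were no longer past 1, and Lif passed it under TPM (1.07), Gapdh scaling (1.17) and without mMSC9 and mMSC15 (1.15). In 0 of the 10 members was every HL1cm above the median of the mMSCs, as was so for 9.30% of these genes. The members as a set were therefore close to the background in their counts. In order of median FPKM over mMSCs, the members were Stat3 (17.8), Clcf1 (14.7), Il6 (7.61), Lif (5.31), Il6st (4.70), Osmr (4.37), Lifr (2.48) and, with medians of 0, Il11, Il6ra and Socs3. The ranges of all neighbours in this order overlapped. In HL1cm the order was Lifr (22.7), Stat3 (13.6), Il6st (7.83) and Osmr (2.81), with medians of 0 for the rest.

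On the log2 scale, the ligands had larger SDs between mMSCs than the receptor chains. The SD of log2 FPKM over the 16 cells was 3.27 for Il6, 2.19 for Clcf1, 2.13 for Il11 and 1.91 for Lif, against 1.40 for Il6st, 1.32 for Stat3, 1.23 for Osmr and Socs3, 1.18 for Lifr and 0.77 for Il6ra. The median over the 10867 genes that reached 1 FPKM in 2 or more mMSCs was 1.38 and the 90th percentile 2.17. Since the SD changes with the mean level, each member was set beside the genes within 0.25 of its mean log2 FPKM. Of these, 99.3% had a smaller SD than Il6 (575 genes), 90.6% than Il11, 75.9% than Clcf1 and 55.8% than Lif. For the receptor chains the share was 4.45% for Lifr, 4.96% for Osmr, 14.8% for Il6st and 51.9% for Il6ra, close to that of Lif. It was 24.4% for Stat3 and 71.2% for Socs3. At like mean levels, Il6 was therefore among the genes with the largest SD between cells, and Lifr and Osmr among those with the smallest. These genes were not matched for transcript length, which was 1141 bases for Il6, 9655 for Lifr and 5491 for Osmr. In mMSCs listed at 0, 3 read pairs correspond to a median of 13.5 FPKM for Il6 and 1.95 for Lifr. The part of length in these shares was not tested.

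**Figure D3:**
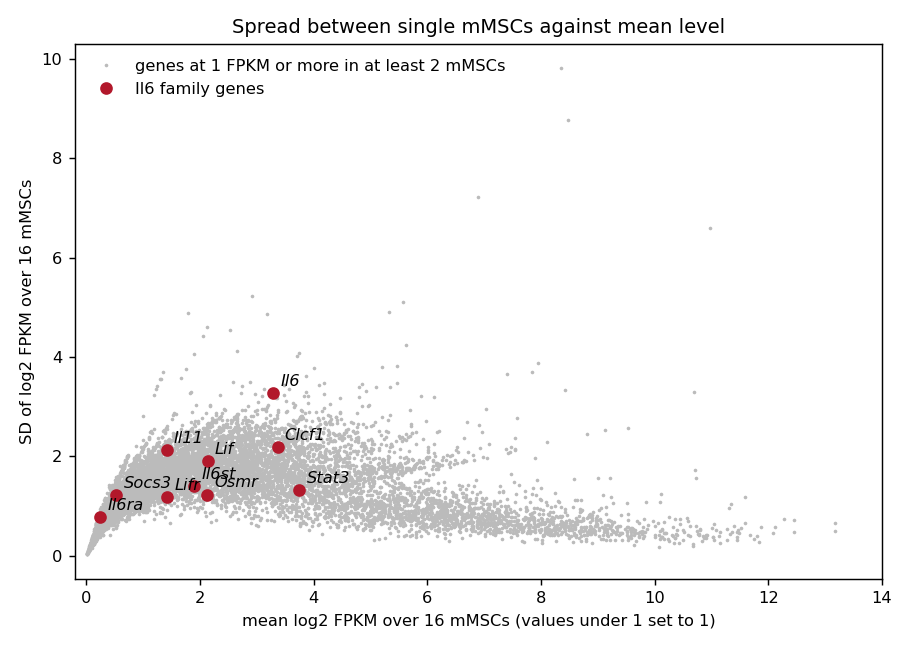
SD of log2 FPKM over the 16 single mMSCs against the mean log2 FPKM (values under 1 FPKM set to 1) for 10867 genes (grey points) and the 10 members (red points). Il6 lies at the upper edge of the genes of its level with an SD of 3.27, and Lifr, Osmr and Il6st lie in the lower part.

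The next question was how the cells that hold a ligand relate to the receptor chains and to Socs3. The whole classical Il-6 unit, Il6 with Il6ra and Il6st, was above 0 in 2 of 16 mMSCs (mMSC6 and mMSC12), which are the only mMSCs with Il6ra. Another 6 Il6 cells held Il6st but not Il6ra, and mMSC7 held neither. Counting all mMSCs, 12 held Il6st without Il6ra, as did 5 of 5 HL1cm. The Lif unit was more complete: 9 of the 10 Lif cells also held Lifr and Il6st, the exception being mMSC7, and so did the 2 HL1cm with Lif. Counted from 1 FPKM, the Lif unit was found in 7 mMSCs and the Il6 unit in 2. Counted from 10 FPKM, each was found in 0. Whatever their Lif, 13 of 16 mMSCs held Lifr with Il6st, so the count for Lif is not particular to the Lif cells. Osmr with Il6st was found in 14 mMSCs, and Lifr, Osmr and Il6st together in 13 mMSCs and 5 of 5 HL1cm.

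All 3 mMSCs with Socs3 held Il6 and Lif, together with Clcf1, which was above 0 in 12 of 16 cells in all. None of the 3 held Il11, which was above 0 in only 6 of 16. Of the 735 genes above 0 in exactly 3 mMSCs, 7.35% had all 3 cells among the 7 with Il6 and Lif. Depth moves with this result, since the Socs3 cells were the deepest (mMSC6), the second (mMSC4) and the sixth (mMSC3) of the 16 libraries by aligned read pairs, 6 of the 7 cells with Il6 and Lif were among the 9 deepest libraries, and 21.8% of those 735 genes were found in the 9 deepest only. The part of depth in the result was not tested. The group of 7 was formed from these same data, and it is narrower than the 9 cells with Il6 or the 10 with Lif. Shares of the 735 genes in those wider groups were not counted, so 7.35% does not show that the overlap is unusual. Of the Socs3 cells, mMSC3 had 19.3 FPKM of Socs3 and 59.9 of Il6, and mMSC6 had 5.35 and 163. In mMSC4, the lowest in both, the values were 3.25 and 7.83. The other 5 cells with Il6 at 49.1 FPKM or more, mMSC11, mMSC5, mMSC15, mMSC12 and mMSC13, had Socs3 listed at 0. In mMSC15 such a 0, if it is a true count, allows up to 8.45 FPKM. Both mMSCs with Il6ra also held Il6 and Lif. Among 931 genes above 0 in exactly 2 mMSCs, 34.3% had both cells among the Il6 cells and 44.8% among the Lif cells.

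**Figure D4:**
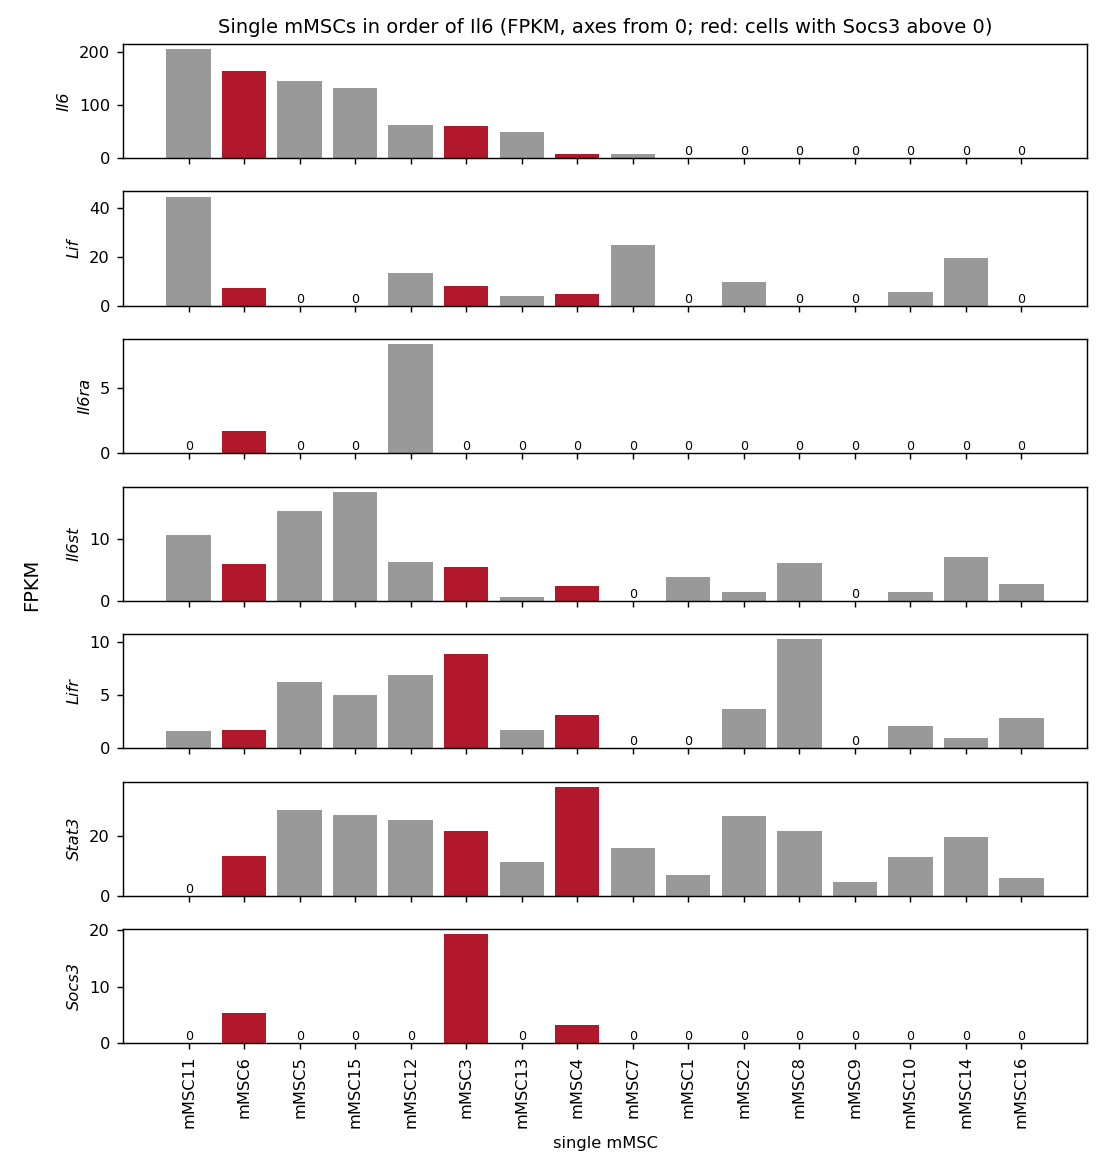
FPKM (linear axes from 0) of Il6, Lif, Il6ra, Il6st, Lifr, Stat3 and Socs3 in the 16 single mMSCs, ordered from the highest Il6 (mMSC11, 204 FPKM) to the cells listed at 0. Red bars are the 3 cells with Socs3 above 0 (mMSC6, mMSC3 and mMSC4), all of which also have Il6 and Lif above 0.

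In the 9 cells with Il6, the median of Il6st was 6.04 FPKM (0 to 17.7), and in the 7 cells without Il6 it was 2.67 (0 to 7.20). The 2 ranges overlapped, and the difference between the median log2 values was 1.18, past the 2-fold line that 17.9% of 6777 genes passed upwards and 15.8% downwards between the same cells. It fell short of that line without mMSC9 and mMSC15 (0.83) and with log2(FPKM + 1) (0.94). Under TPM it was 2.16, where 3014 genes passed upwards in place of 1216. Stat3 (21.7 against 13.1 FPKM), Osmr (6.01 against 4.09) and Lifr (3.10 against 2.13) were also higher in median in the Il6 cells, by 0.73, 0.56 and 0.54, all short of that line. Socs3 was above 0 in 3 of the Il6 cells and 0 of the others, and Il6ra in 2 and 0. The median number of aligned read pairs was 1.83 times as high in the cells with Il6 as in those without, and the part of depth in these differences was not tested.

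In the 10 cells with Lif, Lifr had a median of 1.92 FPKM, against 3.92 in the 6 without, a log2 difference of -0.98, with ranges of 0 to 8.92 and 0 to 10.2. Il6st was 3.95 against 4.99 FPKM, Osmr 5.34 against 3.19 and Stat3 17.8 against 14.4, so no receptor chain passed the 2-fold line that 19.0% of genes passed upwards and 13.5% downwards. Lif cells had 2.25 times the median aligned read pairs of the others. In the 6 cells with Il11, Lifr had a median of 4.52 FPKM against 1.92 (log2 difference 1.14) and Il6st 6.18 against 3.16 (1.01). Both passed the line, as did 16% of genes upwards and 14.2% downwards. Socs3 was above 0 in 0 of these 6 cells and 3 of the other 10. How many other genes found in 3 mMSCs miss the Il11 cells was not counted. With Il11 cells counted only from 10 FPKM, the differences became -0.61 for Lifr and -0.08 for Il6st, so these 2 results rest on the low values of mMSC8 and mMSC12. In the 12 cells with Clcf1, Il6st had a median of 3.29 FPKM against 6.64 in the 4 without (log2 difference -1.03, background 18.2% upwards and 15.5% downwards), and Lifr, Osmr and Stat3 were lower in median by 0.24, 0.72 and 0.49. Il11 with its own receptor chain Il11ra1 and Il6st was found together in 0 of 16 mMSCs, with Il11ra1 above 0 in only 2 cells.

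Across the 16 mMSCs, Il6 and Il6st had a Spearman rho of 0.52 (Pearson's r 0.54), with a range of 0.43 to 0.62 when each cell was left out in turn. The largest rho among the 45 pairs of members was 0.65, between Lifr and Stat3 (0.62 to 0.68), and Osmr and Stat3 followed the same direction with 0.47 (0.36 to 0.69). Il6 and Socs3 had a rho of 0.35 (0.20 to 0.45), Lif and Lifr -0.21 (-0.34 to -0.09) and Lif and Socs3 0.14. Of the 45 pairs, 28 were positive, from -0.36 (Il11 with Socs3) to 0.65, with a median of 0.12. These coefficients describe cells that share 1 device and 1 run, were treated as 1 culture and differ in depth: with the aligned read pairs of the libraries, rho was 0.55 for Socs3, 0.54 for Lif and 0.50 for Il6, and between -0.22 and 0.27 for the other 7 members, 0.05 for Il6st among them. With how many genes reached 1 FPKM in a library, another measure of depth, rho was 0.42 for Il6st, the highest of the 10 members, and 0.27 for Il6.

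The population controls were set beside the mean of the single cells. In a bulk sample, more cells of a type and more RNA per cell cannot be told apart. In mMSC-PC, Lif was at 118 FPKM, above all 16 cells, and its log2 difference from the mean of the cells (8.87 FPKM) was 3.73, the largest of the members. Clcf1 was 69.4 FPKM in mMSC-PC against a mean of 22.3 (1.64), Osmr 24.1 against 6.13 (1.98), Lifr 7.35 against 3.44 (1.09) and Stat3 36.7 against 17.4 (1.08). Il6 was 73.7 FPKM in mMSC-PC against a mean of 51.9 (0.51), but the difference was 3.28 from the median of the cells, of which 7 were listed at 0. Il6st was 9.89 against 5.42 (0.87), and Il11 was 3.84 against 8.62 (-1.17), a mean to which mMSC5 contributed most. For Il11 the difference was 1.94, in the other direction, from the median of the cells, and -0.35 under TPM. Of 9 members with enough signal for this comparison, 5 were thus higher and 1 lower by 1 or more, as were 27.1% and 19.4% of 10996 genes. Lif, Osmr and Stat3 lay above every single mMSC, as did 12.1% of genes. Gapdh, a general reference gene, was also higher in mMSC-PC, at 551 FPKM against 157 to 319 in the mMSCs, and its part in these differences was not tested. Socs3 and Il6ra were listed at 0 in mMSC-PC.

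In HL1cm-PC, Il6st was at 63.1 FPKM, above all 5 single HL1cm, and differed from their mean of 9.01 by 2.81 on the log2 scale. Osmr was 14.5 against 5.24 FPKM (1.47), Socs3 5.34 against 0.963 (2.42, with the mean set to 1), Stat3 50.4 against 25.7 (0.97) and Lifr 14.8 against 22.3 (-0.59). Il6st and Socs3 lay above every HL1cm. The background was high here, with 41.1% of 10847 genes higher by 1 or more, 13.6% lower and 36.9% above every cell.

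The other genes of the pathway were read as whole lists. Of the other ligands, Osm, Ctf1, Ctf2, Cntf, Ebi3 and Il31 were listed at 0 in all 23 libraries, among them Osm, the ligand of Osmr. Il27 was above 0 in 1 mMSC (17.3 FPKM). Of 4 other receptor chains, only Il11ra1 was above 0 in mMSCs, in 2 cells (highest 14.4 FPKM), and Cntfr, Il27ra and Il31ra were listed at 0 in all 16. Il11ra1 was above 0 in mMSC11 and mMSC13, and Il11 in 6 other mMSCs. How many other genes miss the Il11 cells in this way was not counted. Cntfr, a chain for Clcf1, was listed at 0 beside 12 cells with that ligand.

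Downstream, Jak1, a kinase bound to gp130, was above 0 in every mMSC, at 9.54 to 89.6 FPKM (median 40.6), against 5.76 to 23.6 in HL1cm. Its difference between the cell types was 1.39, past the line that 21.4% of all genes compared passed upwards. In the population controls its levels were closer, at 47.0 FPKM in mMSC-PC and 38.0 in HL1cm-PC. Jak2 was above 0 in 11 mMSCs, Stat5a in 6 and Tyk2 in 1. Of 7 genes for adapters and shedding, Shc1 and Grb2 were higher and Gab1 lower (21.4% and 21.6% of all genes compared), although Grb2 was 1.61 FPKM in mMSC-PC and 7.20 in HL1cm-PC, while Adam10 (28.6 to 119 FPKM) and Adam17 (above 0 in 13 mMSCs, median 7.74), proteases known to cut receptors such as Il6ra from the cell surface, and the phosphatase Ptpn11 (median 5.88) were not past the line. Of 7 other inhibitors, 2 were higher, the phosphatase Ptpn2 (median 43.9 FPKM, HL1cm 0 to 13.9, but 40.3 in mMSC-PC and 58.4 in HL1cm-PC) and Socs2 (above 0 in 14 mMSCs, median 18.7, against 1 HL1cm), and 2 lower, Pias1 and Pias3, beside the same shares of all genes. Socs1 was above 0 in 1 mMSC at 27.4 FPKM and Cish in 6. Of Socs1, Socs2 and Socs3, Socs2 was thus above 0 in the most mMSCs.

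Several genes often listed as Stat3 targets were high in mMSCs, including cells with Socs3 listed at 0. Of 16 in the list, 5 were higher in mMSCs by 1 or more and 1, Fos, was lower, against 21.4% and 21.6% of all genes compared, and 4 (Cebpd, Bcl3, Lcn2 and Saa3) were listed at 0 in all 16 mMSCs. Timp1, an inhibitor of matrix proteases, ran from 1780 to 9176 FPKM in mMSCs and 11.7 to 56.7 in HL1cm. Ccnd1, a cyclin of the G1 phase, was 10.9 to 219 FPKM in mMSCs and at most 1.56 in HL1cm, and Cebpb (median 82.6), Bcl2l1 (69.4) and Myc (47.9) were the others. The ranges of these 3 overlapped those of HL1cm. The highest HL1cm values were 34.1 FPKM for Cebpb, 167 for Bcl2l1 and 136 for Myc, the last 2 above every single mMSC. Bcl2l1 was 388 FPKM in mMSC-PC and 159 in HL1cm-PC, and Myc was 115 and 87.4. Cebpb was 24.7 FPKM in mMSC-PC and listed at 0 in HL1cm-PC. Of 13 genes known to regulate Il6, 7 were higher and 1, Egr1, lower, beside the same 21.4% and 21.6%. Ptgs2, the inducible cyclooxygenase, was above 0 in all 16 mMSCs (119 to 646 FPKM) and listed at 0 in all HL1cm. After it came the NF-kB inhibitor Nfkbia (median 44.5, up to 101 in HL1cm), at 170 FPKM in mMSC-PC and 163 in HL1cm-PC. Next were the tumour necrosis factor receptor Tnfrsf1a (28.1), Nfkbiz (26.0) and the NF-kB subunit Rela (23.5), the last with a difference of 0.08. Nfkbiz encodes a nuclear cofactor needed for induction of Il6. Over these lists of 61 genes, 45 had enough signal to be compared, of which 19 were higher in mMSCs and 5 lower, with a median difference of 0.63. Over all genes compared, 21.4% were higher, 21.6% lower and the median was 0.08.

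Genes of these lists were also set beside Il6, Lif and Socs3 from cell to cell. Over the 16 mMSCs, the median rho with Il6 was -0.26 for the 8 Stat3 targets that reached 1 FPKM in 8 or more mMSCs (from -0.40 for Timp1 to 0.54 for Hif1a) and 0.16 for 9 Il6 regulators (highest 0.49, Nfkb1), against 0.02 over all such genes. With Lif, the median over the targets was 0.18, from -0.21 for Timp1 to 0.64 for Cebpb, against 0.03 over all such genes. With Socs3, the median over the regulators was 0.11, from -0.37 for Tnfrsf1a to 0.60 for Nfkbiz, against 0.02. The genes whose pattern over the 16 cells was most like that of Il6 were Ergic2 (rho 0.87), Eif3m (0.82), Sulf2 (0.80), Jarid2 (0.78) and Sp1 (0.77), the highest of 6776 genes. Unlike Il6, each of these was also above 0 in at least 4 of 5 HL1cm, and Ergic2, Eif3m and Sp1 were above 0 in all 16 mMSCs. For Lif they were Ythdf2 (0.80), 2310039H08Rik (0.80), Spsb1 (0.78), Mars (0.76) and Stt3a (0.75). For Socs3, whose pattern rests on 3 cells, they were Abhd14b (0.71), Zfand1 (0.71), Zfp39 (0.70), Pex3 (0.69) and Ptprj (0.69).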

How the data were processed

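RNA was measured in 16 single mMSCs, 5 single HL1cm and 2 population controls. The authors aligned paired reads of all libraries to mm10 with TopHat2 2.0.12 at default settings. Abundance came from Cufflinks 2.2.1, likewise at default settings. The deposited table holds FPKM for 23284 genes, and its values were used unchanged. Cufflinks divides by exon length and mapped fragments, so values of low genes move in steps set by depth, and SMARTer amplification without molecular identifiers adds noise that no interval here covers. No read counts were used, and all 23 value columns were matched to a sample (0 were not).

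Log2 values were taken after setting values under 1 FPKM to 1, as in the authors' scripts, and a log2 difference of 1 (2-fold) was the line for calling. Genes entered the comparison of cell types at 1 FPKM or more in at least 2 single cells, and that of cells with and without a ligand in at least 8 mMSCs. Shares of cells have exact 95% intervals (Clopper-Pearson). Read pairs behind a value were estimated from the FPKM, the longest RefSeq-linked GENCODE M21 transcript and the study's alignment statistics, and are approximate. Spearman's rho over 16 cells is given without p, since single cells, treated as from 1 culture, were not counted as replicates. The 10 members, the gene lists and the alternatives were chosen with earlier results of these data known. The genes named were all members, up to 5 genes of each list with the highest median over mMSCs, any other ligand or receptor above 0 in an mMSC, and the 5 genes most like Il6, Lif and Socs3, except that some genes of the lists are counted in the totals but not reported here. Genes past the line within the lists or at 0 (Gab1, Pias3, Fos, Egr1, Cebpd, Bcl3, Lcn2 and Saa3) and the extremes of rho (Hif1a and Nfkb1) were named after their values were seen. Alternatives used log2(FPKM + 1), a limit of 10 FPKM, TPM or Gapdh scaling, fewer cells, and a higher threshold for a ligand. Scaling by the median of ratios over 1663 genes was added after seeing the data. The computations used matplotlib 3.10.9, scipy 1.17.1, pandas 2.3.3 and numpy 2.4.6 in Python 3.11.15 with a random seed of 7, and were tested on simulated data.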

Additional observations from a re-analysis of the deposited data

Results flagged for a closer look

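In 2 of the 6 members with a value above 0 in single HL1cm, 1 of the 5 cells lay far from the others. For Lifr, HL1cm4 was at 1.69 FPKM and the next cell at 22.2, and this gap took 0.865 of the range of the 5 log2 values. For Socs3, HL1cm3 was at 4.82 FPKM and the other 4 cells were listed at 0, so the gap took the whole range (1). Chance marks about 1 group in 20 in this way, and a gene found in a single cell of 5 is always marked. Groups of 16 cells were not examined for this.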

How the results depend on the processing

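Rescaling moved the median log2 difference between mMSCs and HL1cm over all genes by 0.15 (TPM), 0.14 (Gapdh) and -0.15 (median of ratios). Il6, Il11 and Clcf1 stayed higher and Lifr lower in mMSCs under each alternative, although with a limit of 10 FPKM Clcf1 (0.87) and Il11 (0.35) fell short of 1. Lif passed 1 under TPM (1.07), Gapdh (1.17) and without mMSC9 and mMSC15 (1.15), Osmr under TPM (1.04), and Il6st under the median of ratios (-1.08). Leaving out a single HL1cm also took Lif past 1 without HL1cm3 (1.23) or HL1cm4 (1.43) and Osmr without HL1cm1 (1.07). The same was so for Il6st without HL1cm3 (-1.28) or HL1cm4 (-1.02). With 10 FPKM as the limit, 882 genes were higher and 911 lower in mMSCs, in place of 2538 and 2556. Counting only genes at 10 FPKM or more, Il6 with Il6ra and Il6st was found in 0 mMSCs, Lif with Lifr and Il6st in 0, Il6 with Lif in 2 and Socs3 with both in 0. Under TPM, the genes higher and lower in cells with a ligand numbered 3014 and 489 for Il6 (1216 and 1071 as deposited), 3480 and 324 for Lif (1285 and 912), and 678 and 1706 for Il11 (1082 and 964). Very short genes such as Mir3470a held up to 72.3% of a library's summed FPKM, and their share sets this scaling. Il6st stayed higher in Il6 cells, by 0.83 without mMSC9 and mMSC15 to 2.16 under TPM, and was 0.94 with log2(FPKM + 1). In Il11 cells counted from 10 FPKM, the difference reversed for Il6st (-0.077) and Lifr (-0.61), and that of Lifr also under TPM (-0.025). The Spearman correlation of Il6 and Il6st was 0.65 at a limit of 10 FPKM, 0.68 under TPM and 0.42 without mMSC9 and mMSC15, and 0.43 to 0.62 with each mMSC left out in turn. That of Il6 and Socs3 was 0.15 at 10 FPKM and 0.20 to 0.45 with each mMSC left out. Against the median of the cells in place of the mean, Il11 was higher in mMSC-PC (1.94), and under TPM its difference from the mean was -0.35. The cause of these shifts was not tested. Among values for single genes, 343 of the alternatives kept within the spread, 28 moved and 4 reversed. Among the other values, which include counts of genes and of cells, 90 stayed the same by this measure and 16 moved. No paired analysis was possible because the numbers of mMSCs and HL1cm only name cells and no result comes from a test. Depth limits the low values, since the lowest value above 0 rests on 1.41 read pairs for Il11, 2.13 for Il6 and 3.55 for Socs3.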
